A study of Mus musculus with 17 samples.

Results

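The Reg family genes described here are Reg1, Reg3a, Reg3b, Reg3g and Reg4, 5 of the 53278 gene symbols in the deposited expression table. They were chosen by symbol, after their TPM values in these same libraries and the differences between dams and ages had been seen. Their levels and differences are therefore given as a description, without a test, and nothing is read from how many of them passed a threshold. All 5 passed the filter that left 15066 genes for testing, at least 1 TPM (length-scaled transcript abundance relative to the whole library) in 2 or more libraries. The other Reg genes of the mouse are Reg2 and Reg3d.

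The libraries hold RNA of small intestinal epithelial cells sorted as EpCAM+, CD45- and Ter119-, a gate that keeps epithelium and removes leukocytes and red cells. All pups were Igha -/+ mice of strain C57BL/6, so every pup carried 1 working copy of the gene for the IgA heavy chain. They differed in the mother that nursed them: a C57BL/6 dam (B6 dam), whose milk holds IgA, or an IgA -/- dam (IgA-null dam), which makes none. Pups were taken on day of life 14, 24 or 42, with 3 libraries for each dam and day, except 2 for the B6 dam at day 24. Shared litters or dams are not given in the labels, so error terms measure only the spread between these samples. The label of each sample carries a date. It was not the same for the 2 dams at day 14 or at day 24, where date and dam cannot be told apart, but it was the same at day 42. Date and age cannot be told apart either, except for days 24 and 42 of IgA-null dam pups, which carry 1 date.

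Reg proteins are small secreted proteins built around a C-type lectin fold, named for regenerating tissue in which the first was found. In the intestine, Reg3g and Reg3b are released into the lumen, bind bacterial cell walls and kill or hold back bacteria. Their transcripts are known to be induced by bacterial colonisation, through MyD88 and through IL-22 signalling to the transcription factor STAT3. Reg1 and Reg4 are better known as growth and survival factors, and Reg4 is a known product of enteroendocrine and goblet cells. Antimicrobial activity was not measured here, so the shared name of the family says nothing about what Reg1 and Reg4 did in these animals.

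In the GENCODE M21 annotation of GRCm38, 4 of the 5 genes lie close together on chromosome 6: Reg3b (ENSMUSG00000071356, 78370657 to 78373466, plus strand), Reg3a (ENSMUSG00000079516, 78380709 to 78383827, plus strand), Reg1 (ENSMUSG00000059654, 78422711 to 78428667, plus strand) and Reg3g (ENSMUSG00000030017, 78466269 to 78468872, minus strand). Reg2 and Reg3d lie among them. Reg4 (ENSMUSG00000027876) lies apart, on chromosome 3 at 98222156 to 98236748, plus strand.

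The promoter stretches of Reg3b and Reg3g are shown because these genes had nearly parallel levels, and that of Reg4 because its levels followed another course. Sequences are from RefSeq (GRCm38.p6), 5′ to 3′ on the gene's own strand, with motif matches in capitals.
Reg3b, chr6:78370711-78370861, plus strand: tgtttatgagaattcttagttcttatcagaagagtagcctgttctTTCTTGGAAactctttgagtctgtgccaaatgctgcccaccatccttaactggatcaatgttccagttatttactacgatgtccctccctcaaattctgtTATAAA
Reg3g, chr6:78468875-78469024, minus strand: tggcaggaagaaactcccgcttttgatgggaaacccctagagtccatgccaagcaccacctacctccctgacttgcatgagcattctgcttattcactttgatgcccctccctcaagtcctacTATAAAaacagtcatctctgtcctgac
Reg4, chr3:98221988-98222137, plus strand: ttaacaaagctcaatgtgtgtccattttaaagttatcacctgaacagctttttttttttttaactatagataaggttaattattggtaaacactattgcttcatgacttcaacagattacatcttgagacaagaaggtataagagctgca
The capitals mark TATAAA (the TATA box) and TTCNNNGAA (the core bound by STAT factors), each searched on both strands in the 250 bases before the start site. Reg3b held the STAT letters at base -129 and the TATA letters at -29 from its RefSeq start. That start, at 78370885, lies inside the GENCODE gene given above, and so does the Reg3b stretch shown. Reg3g held the TATA letters at -27 and, on the other strand, at -161, and Reg4 held neither motif in this window. Of 32851 promoters of the same length, 12.4% held TATAAA and 7.02% held TTCNNNGAA. Such a match is a description and no evidence that a factor binds. The Reg3b and Reg3g promoter windows were 68.9% identical, while the other pairs of family members ranged from 47.8% to 58.5%.

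Sequence shared between the transcripts was limited. No stretch of 50 bases was shared between the GENCODE transcripts of any pair of Reg genes, and the longest shared run was 35 bases, between Reg3b and Reg3g. Levels per length still depend on the gene model, because the Reg3g model counts 2114 exon bases, a retained intron included, against 1142 for Reg3b.

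Recovered depth was between 8242877 and 17637915 reads per library. The defining epithelial genes were present throughout, with Epcam between 153 and 500 TPM and Vil1 between 88.1 and 289 TPM. Ptprc, which encodes CD45, stayed at or below 0.806 TPM. Between some groups most genes moved up or down as a block, so differences are given as deposited and again with each library divided by its median-of-ratios size factor, which is called scaled here. Scaling moved the median log2 difference of all tested genes from 0.33 to -0.01 between the dams at day 14, and from -1.02 to -0.02 for IgA-null dam pups of day 24 against day 14. Differences below are in log2(TPM + 1), a scale on which low genes appear to change less than they do, and come with the standard error (SE) of 1 limma fit over all 17 libraries.

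At day 14, before weaning, Reg3b and Reg3g were close to the bottom of their range in pups of B6 dams, and both were higher in every IgA-null dam library. Reg3b was at 2.77, 3.67 and 1.93 TPM in the B6 dam libraries, which rest on 46, 47 and 33 reads. In the IgA-null dam libraries it was at 121, 52.3 and 51.9 TPM. The lowest of these lay far above the highest in B6 dam pups, and the log2 difference was 4.23 (SE 0.48), or 3.72 (SE 0.55) scaled. In bulk RNA, fewer cells of a type and less RNA per cell cannot be told apart, here and for the levels that follow.

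Reg3g, the relative of Reg3b that acts mainly on Gram-positive bacteria, was at 1.46, 0.843 and 0.981 TPM in B6 dam pups, from 45, 20 and 31 reads. With the IgA-null dam it was at 45.5, 8.04 and 6.74 TPM. The groups did not overlap, but 1 library, replicate 1, held several times the level of the other 2. Its log2 difference was 2.83 (SE 0.55), or 2.33 (SE 0.60) scaled, and 2.01 as deposited without that library.

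Reg3a, another member of the Reg3 group, was scarce at this age. It was at 0.499, 0.432 and 1.22 TPM in B6 dam pups, from 6, 4 and 15 reads, and at 4.40, 2.93 and 2.90 TPM in IgA-null dam pups. The groups did not overlap, and the log2 difference was 1.37 (SE 0.46), or 0.96 (SE 0.59) scaled.

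Reg4 had the highest TPM, a level per length, of the 5 at day 14 with either dam. It was at 61.0, 44.8 and 58.9 TPM in B6 dam pups and at 287, 189 and 232 TPM in IgA-null dam pups. Every IgA-null dam library was above every B6 dam library, with a log2 difference of 2.08 (SE 0.34), or 1.62 (SE 0.33) scaled. The 3 IgA-null dam libraries of day 14 were the highest for Reg4 in the whole series.

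Reg1 was the member whose groups overlapped at day 14. It was at 17.2, 13.7 and 21.02 TPM in B6 dam pups and at 85.2, 18.3 and 44.5 TPM in IgA-null dam pups. The log2 difference was 1.23 (SE 0.52), or 0.77 (SE 0.64) scaled, and 0.71 as deposited without IgA-null dam replicate 1, which was also the highest for Reg3b, Reg3g, Reg3a and Reg4 among the day 14 libraries.

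Of the 5 genes, 3 were past the threshold as higher in IgA-null dam pups at day 14 (Reg3b, Reg3g and Reg4), where 8.32% of all tested genes were higher and 0.358% lower at a Benjamini-Hochberg adjusted p under 0.05. After scaling, 2 were (Reg3b and Reg4), against 1.79% of all genes. For 4 of the 5 every IgA-null dam library was above every B6 dam library, which held for 45.1% of all tested genes as deposited. The genes were chosen with these differences known, so nothing is read from these counts.

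**Figure D1:**
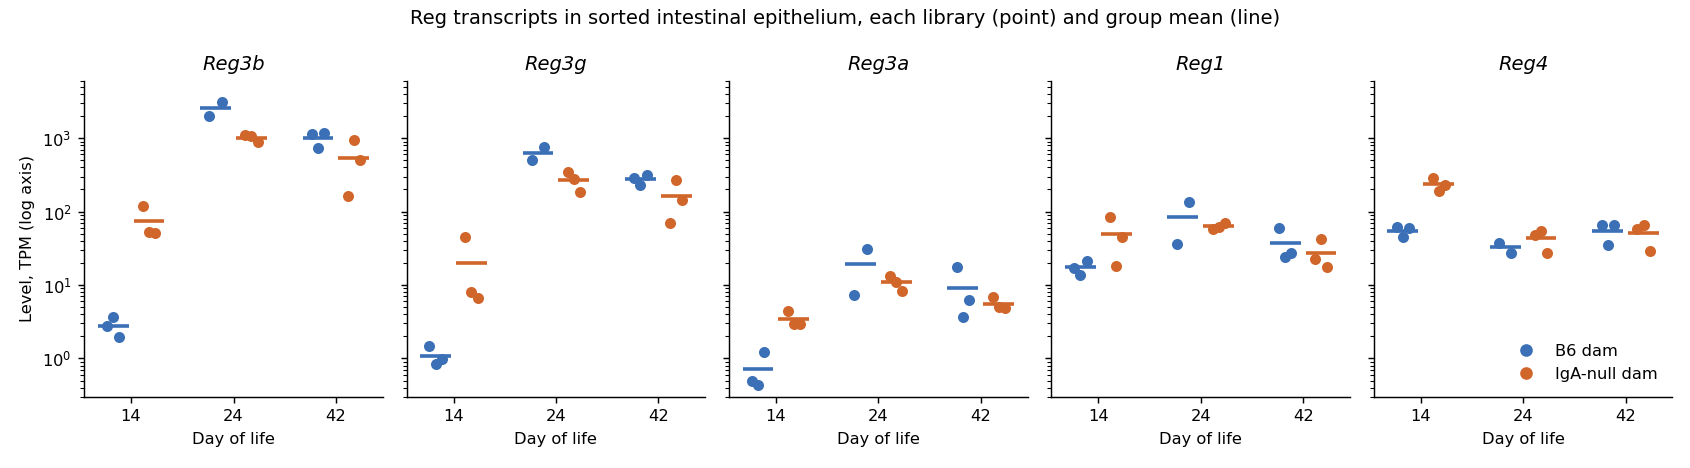
Level of each Reg gene in TPM (log axis) by day of life, with 1 point per library and a line at the group mean, for the B6 dam (blue) and the IgA-null dam (orange). Reg3b and Reg3g are lowest at day 14 in B6 dam pups and highest at day 24 in B6 dam pups, and Reg4 is highest at day 14 in IgA-null dam pups.

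With the B6 dam, the day 14 to 24 interval, which spans weaning, brought the largest differences of the family. Reg3b was at 1986 and 3120 TPM at day 24, a log2 difference from day 14 of 9.39 (SE 0.54). Reg3g was at 505 and 749 TPM, a log2 difference of 8.21 (SE 0.62). As deposited, both libraries of day 24 stood above every other library of the series for these 2 genes.

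Reg3a was at 7.19 and 30.9 TPM and Reg1 at 36.3 and 135 TPM at day 24 in B6 dam pups. Both were above day 14 in each library, by 3.26 (SE 0.51) and 1.98 (SE 0.58) on the log2 scale, but the 2 libraries of day 24 were far from each other, replicate 2 being the higher for both genes. Reg4 took the other direction, at 37.7 and 27.4 TPM, a log2 difference of -0.74 (SE 0.38) that shrank to -0.29 (SE 0.37) scaled, where the libraries overlapped. In this interval 4 of the 5 genes were past the threshold as higher, beside 1.62% of all tested genes that were higher and 6.99% that were lower (7.93% and 5.91% scaled).

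With the IgA-null dam the same interval began from a higher level and, as deposited, ended at a lower one for Reg3b and Reg3g. At day 24 Reg3b was at 1101, 1066 and 886 TPM, a log2 difference from day 14 of 3.86 (SE 0.48), or 5.34 (SE 0.55) scaled. Reg3g was at 350, 276 and 184 TPM, a log2 difference of 4.15 (SE 0.55), or 5.57 (SE 0.60) scaled. For both genes each library was above each day 14 library.

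Reg3a was at 13.1, 11.1 and 8.23 TPM and Reg1 at 58.7, 60.8 and 69.6 TPM at day 24 in IgA-null dam pups. Reg3a was above day 14 in each library, by 1.42 (SE 0.46) on the log2 scale, or 2.67 (SE 0.59) scaled. The Reg1 libraries overlapped those of day 14 as deposited (0.60, SE 0.52) but were all above them scaled (2.06, SE 0.64). Reg4 was at 48.6, 54.3 and 27.0 TPM, below every day 14 library, by -2.46 (SE 0.34) as deposited and -0.98 (SE 0.33) scaled. Here 3 of the 5 genes were past the threshold as higher and 1 as lower, beside 0.863% of tested genes higher and 82.9% lower. After scaling 4 were higher and 0 lower, beside 8.35% and 8.28%.

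At day 24 Reg3b and Reg3g were lower in every IgA-null dam library than in either B6 dam library as deposited, the opposite order to day 14. The log2 difference between the dams was -1.30 (SE 0.54) for Reg3b and -1.23 (SE 0.62) for Reg3g. After scaling these were -0.72 (SE 0.62) and -0.66 (SE 0.67), and the libraries of the 2 dams overlapped. Every IgA-null dam library was below every B6 dam library for 33.5% of all tested genes as deposited, so the order of these 2 genes was common at this age.

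Reg4 was 0.36 (SE 0.38) higher in IgA-null dam pups at day 24 on the log2 scale as deposited and 0.93 (SE 0.37) higher scaled, where the libraries did not overlap. The direction for Reg1 and Reg3a turned with scaling and also with single B6 dam libraries. The log2 difference of Reg1 was -0.15 (SE 0.58) as deposited, 0.42 (SE 0.72) scaled, 0.78 without B6 dam replicate 2 and -1.09 without replicate 1. That of Reg3a was -0.47 (SE 0.51) as deposited, 0.05 (SE 0.66) scaled, 0.51 without replicate 2 and -1.45 without replicate 1.

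In the fit over all genes, the dam difference at day 14 minus that at day 24 was past the threshold as positive for 4 of the 5 genes as deposited, all but Reg1, beside 33.5% of all tested genes. After scaling it was for 0 of the 5, beside 0.153%. The genes were chosen with this contrast known, and nothing is read from these counts.

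By day 42 the libraries of the 2 dams overlapped for each of the 5 genes, as deposited and scaled. Reg3b was at 1136, 737 and 1182 TPM in B6 dam pups and at 165, 939 and 503 TPM in IgA-null dam pups. The IgA-null dam libraries spanned a wide range, replicate 1 being the lowest, and the log2 difference was -1.22 (SE 0.48), or -0.54 without that library.

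Reg3g followed the same order, at 290, 230 and 311 TPM in B6 dam pups and at 69.4, 269 and 146 TPM in IgA-null dam pups. Its log2 difference was -0.97 (SE 0.55), or -0.47 without IgA-null dam replicate 1. Both genes were still well above day 14 with either dam, by 8.07 and 7.05 on the log2 scale in B6 dam pups and by 2.61 and 3.25 in IgA-null dam pups.

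Reg3a was at 17.4, 3.62 and 6.22 TPM in B6 dam pups and at 6.82, 4.98 and 4.82 TPM in IgA-null dam pups at day 42. Reg1 was at 60.2, 24.42 and 26.9 TPM in the former and at 22.3, 42.2 and 17.8 TPM in the latter. In the B6 dam group replicate 1 was the highest for both genes, and without it the libraries of the 2 dams still overlapped.

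Reg4 was at 65.3, 34.6 and 65.8 TPM in B6 dam pups and at 58.3, 66.2 and 29.5 TPM in IgA-null dam pups at day 42. With the B6 dam this was the level of day 14 (log2 difference -0.04, SE 0.34), and in IgA-null dam pups it was below day 14 by -2.24 (SE 0.34), or -1.61 (SE 0.33) scaled.

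None of the 5 genes was past the threshold between the dams at day 24 or at day 42, where 0.0265% and 0.0% of all tested genes were (4 and 0 genes by limma, with 4659 and 174 at an unadjusted p under 0.05). On reads recovered from the TPM, limma-voom called 0 genes at either age. From day 14 to 42 in B6 dam pups, 3 of the 5 were past it as higher, beside 2.78% of all genes. With the IgA-null dam 2 were higher and 1 lower over this interval as deposited, beside 1.77% and 38.9%, and as many scaled, beside 8.4% and 8.09%.

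**Figure D2:**
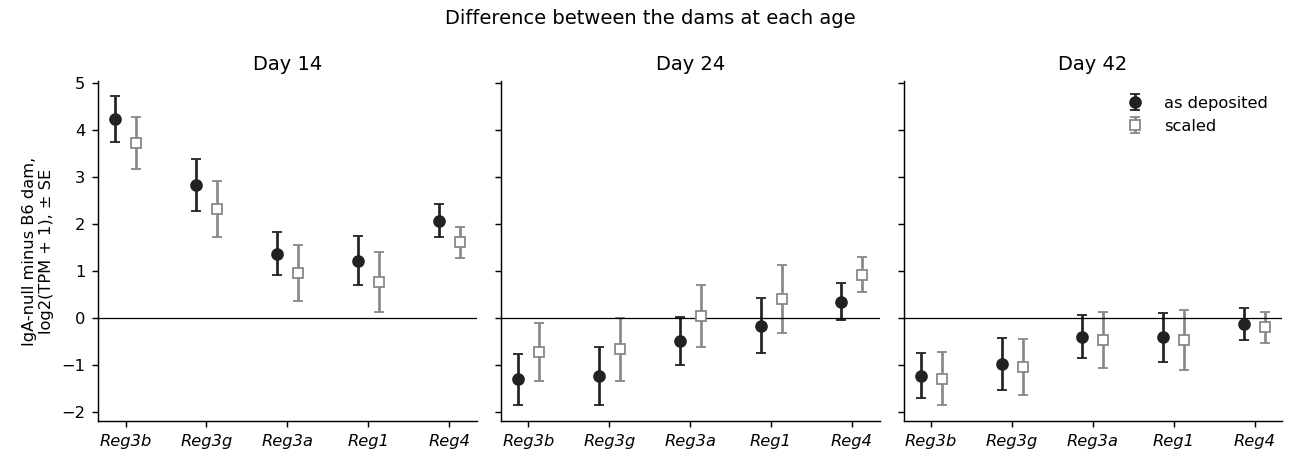
Difference between the dams (IgA-null minus B6) in log2(TPM + 1) for each Reg gene at days 14, 24 and 42, as deposited (filled circles) and scaled (open squares), with bars of 1 SE from the limma fit. Reg3b goes from 4.23 at day 14 to -1.30 at day 24 and -1.22 at day 42 as deposited.

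Over the 6 groups, Reg3b as deposited had the order B6 dam day 14, IgA-null dam day 14, IgA-null dam day 42, IgA-null dam day 24, B6 dam day 42 and B6 dam day 24, from the lowest mean to the highest. The libraries of neighbouring groups were apart at the first 2 steps and at the last, and overlapped between. Reg3g had the same order and the same gaps. After scaling, the mean of the IgA-null dam group of day 24 came above that of the B6 dam group of day 42 for both genes (1788 against 1047 scaled TPM for Reg3b, 462 against 283 for Reg3g). It then overlapped the B6 dam group of day 24, whose lower library was at 1840 for Reg3b and 468 for Reg3g. As deposited, Reg3a shared the first 3 places and the gaps between them, and its last 4 groups overlapped their neighbours. For Reg4 the 5 lowest groups overlapped their neighbours, with means of 32.5 to 55.2 TPM, and IgA-null dam pups of day 14 stood apart at 236 TPM. For Reg1 each group overlapped the next in its order, from a mean of 17.3 TPM (B6 dam, day 14) to 85.4 TPM (B6 dam, day 24).

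The makeup of the family differed between ages. With the B6 dam at day 14 Reg4 made up 70.1% to 73.5% of the summed TPM of the 5 genes and Reg3b 2.30% to 5.78%. With the IgA-null dam at day 14 these shares were 52.9% to 69.9% and 15.3% to 22.2%. At day 24 in B6 dam pups Reg3b made up 76.8% and 77.2%, and at day 42 in B6 dam pups 71.6% to 74.3%. Shares within a library do not depend on scaling.

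The IgA-null dam libraries of the later ages had similar shares with 1 exception. Reg3b made up 70.0% to 75.4% of the sum at day 24 and 51.4% to 71.8% at day 42, the lowest value belonging to replicate 1 of day 42, where Reg4 made up 18.1%. The ratio of Reg3b to Reg4 in TPM, which scaling cannot move either, was 0.0328 to 0.0819 at day 14 in B6 dam pups and 0.223 to 0.420 in IgA-null dam pups. At day 24 it was 52.7 and 114 in B6 dam pups against 19.6 to 32.8 in IgA-null dam pups.

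**Figure D3:**
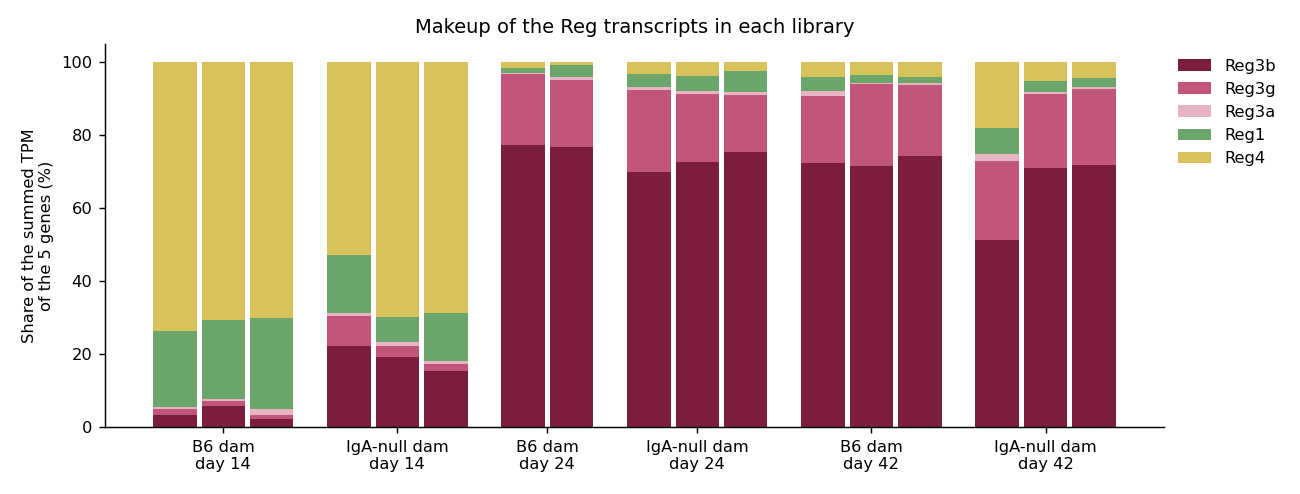
Share of each Reg gene in the summed TPM of the 5 genes, in percent, with 1 bar per library grouped by dam and day. Reg4 takes over 50% of every day 14 bar, and Reg3b takes over 50% of every bar at days 24 and 42.

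Reg3b and Reg3g moved almost in parallel. Across the 17 libraries Pearson's r of their log2(TPM + 1) was 0.99, and over the 11 libraries of days 24 and 42 alone it was 0.98. Reg1 and Reg3a came next in the later libraries (0.86, and 0.78 over all 17), while Reg3a and Reg3b had 0.88 over all 17 but 0.55 in the later ones. Reg4 went with none of the others, at 0.02 with Reg1 and -0.34 with Reg3b. The libraries share ages and dams, and these values are descriptions.

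**Figure D4:**
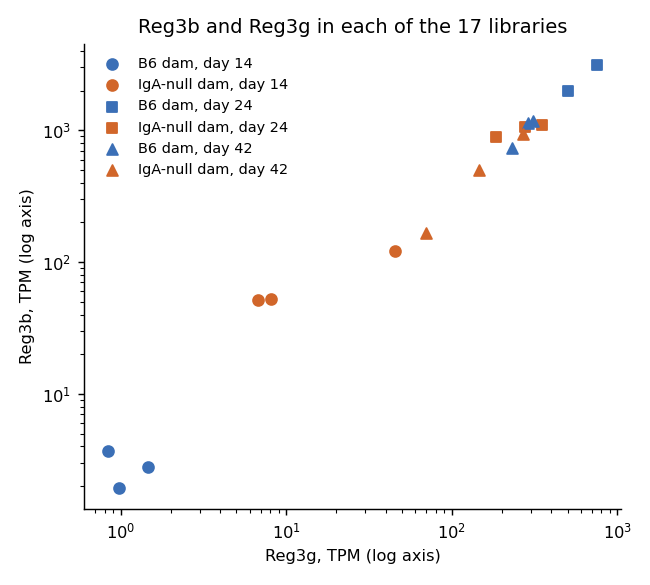
Reg3b against Reg3g, both in TPM on log axes, in each of the 17 libraries, coloured by dam (blue, B6; orange, IgA-null) and shaped by day. The libraries lie along 1 band from the B6 dam day 14 libraries, at 1.93 to 3.67 TPM of Reg3b, to the B6 dam day 24 libraries, at 1986 and 3120 TPM.

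The genes most like each member in these 17 libraries, by Pearson's r of log2(TPM + 1), differed between members. For Reg3a they were Sis (0.98), which encodes the brush border enzyme sucrase-isomaltase, Dpep1 (0.96), a membrane dipeptidase, Cobl (0.96), an actin nucleator, Krt20 (0.93), a keratin of villus cells, and Fam3b (0.93). For Reg1 they were Akp3 (0.94), an intestinal alkaline phosphatase, Papss2 (0.94), which makes the sulfate donor PAPS, Ggt1 (0.91), Car2 (0.90) and Tsku (0.89). For both members the values in the 11 later libraries alone stayed between 0.86 and 0.97.

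For Reg3b the closest were Fam3b (0.97), a secreted protein, Bcl2l15 (0.93), Oit1 (0.92), Arg2 (0.92), a mitochondrial arginase, and Upp1 (0.91), a uridine phosphorylase. Fam3b (0.97) also led for Reg3g, followed by Batf2 (0.94), Tldc2 (0.93), Arg2 (0.93) and Oit1 (0.93). This likeness rested on the step after day 14 for several of them: in the 11 later libraries Oit1 had an r of 0.17 with Reg3b, and Arg2 of 0.28. The closest to Reg4 were Mptx1 (0.94), a pentraxin of Paneth cells, Bambi (0.93), Chrm3 (0.93), a muscarinic receptor, Rnase1 (0.93) and Tomm40l (0.91). In the 11 later libraries these values were lower, from 0.55 for Tomm40l to 0.84 for Rnase1.

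The family genes outside the 5 were scarce. Reg2 was at 0 in 16 of 17 libraries. Reg3d, which was tested, lay between 0 and 1.42 TPM, on at most 27 reads. It rose from day 14 to 24 in B6 dam pups, from a mean of 0.0950 TPM to 0.893 and 1.42 TPM (log2 difference 0.97, SE 0.26, limma adjusted p = 0.027), and lost the call without B6 dam replicate 1 or 2 of day 14 or without replicate 2 of day 24. Between the dams at day 14 it did not pass (0.25, SE 0.23, adjusted p = 0.43).

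Genes of the route that is known to induce Reg3 transcripts were read beside them. Of 20 listed IL-22 and STAT3 targets, 9 were abundant enough to test. In B6 dam pups of day 14, 15 of the 20 stayed under 1 TPM. Any of those that passed the filter did so only through groups where they were higher. Their rise was partly fixed by that choice, and the counts are a description. In B6 dam pups 5 of the 9 rose and 0 fell between days 14 and 24, with a list median of 1.58 against -0.29 for all tested genes. Of all tested genes 1.62% rose and 6.99% fell. After scaling all 9 rose (median 1.81, against 0.01 for all genes), and in IgA-null dam pups after scaling all 9 rose as well (median 1.38, against -0.02). As deposited, 4 rose and 1 fell in IgA-null dam pups (median 0.08, against -1.02), beside 0.863% and 82.9% of all tested genes.

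Duox2, an epithelial oxidase that makes hydrogen peroxide, rose from 0.282 ± 0.0674 TPM (SD, n = 3) to 11.7 and 15.3 TPM in B6 dam pups (log2 difference 3.49, SE 0.19, limma adjusted p = 1.7e-08). Its partner Duoxa2 rose by 2.14 (SE 0.22, adjusted p = 1.9e-05). Nos2, the inducible nitric oxide synthase, rose from 0.0659 ± 0.0378 TPM to 3.22 and 11.3 TPM (2.76, SE 0.37, adjusted p = 0.00019). The other 2 that rose were Fut2, a fucosyltransferase (1.58, SE 0.29), and Il18, an epithelial cytokine (2.03, SE 0.42), whose call was lost without B6 dam replicate 2 of day 24.

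Between the dams at day 14 this list gave 1 call, beside 8.32% of all tested genes that were higher. Fut2 rose, from 0.247 to 1.43 TPM (log2 difference 0.95, SE 0.26, adjusted p = 0.036), and it did not pass after scaling (adjusted p = 0.13) or without any single day 14 library. The list median was 0.37, against 0.33 for all genes. The list gave 3 calls with a pseudocount of 0.1 in place of 1, and 4 with library weights, whose estimate did not converge. It gave 0 with a pseudocount of 5, no filter, a filter of 5 TPM, the replicate block or limma-voom. Duox2 had a log2 difference of 0.37 (SE 0.17) and Duoxa2 of 0.02 (SE 0.20). Their means in B6 dam pups were 0.282 and 0.176 TPM, levels at which log2(TPM + 1) shrinks differences.

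Calls among receptors and signal carriers are given beside the shares of all tested genes. These were 8.32% higher between the dams at day 14, and 1.62% higher and 6.99% lower in B6 dam pups by day 24. Of 14 tested genes for STAT3 signalling and the receptors of IL-22, IL-6 and related cytokines, 1 rose between the dams at day 14, the IL-17 receptor subunit Il17rc (3.48 to 6.62 TPM, adjusted p = 0.018, and 0.34 scaled), a call that was also lost without any of 4 single libraries. In B6 dam pups 2 rose by day 24, Il17rc (1.09, SE 0.20, adjusted p = 0.0025) and Socs3, a feedback inhibitor of STAT3 (1.60, SE 0.33, adjusted p = 0.006), and Il11ra1 fell (-0.75, SE 0.17). Without B6 dam replicate 2 of day 24 the count was 1 in place of 3.

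Of 18 tested Toll-like receptor, MyD88 and NOD genes, 1 rose between the dams at day 14, beside 8.32% of all tested genes. It was Sigirr, an inhibitor of these receptors (2.55 to 4.61 TPM, limma adjusted p = 0.041, and 0.29 scaled). With any single day 14 library left out, 0 of the 18 passed. Tlr5, the flagellin receptor, fell between days 14 and 24 in B6 dam pups, from 1.68 ± 0.722 TPM to 0.111 and 0.137 TPM (-1.22, SE 0.21, adjusted p = 0.0018), and Tlr3 rose (0.73, SE 0.19, adjusted p = 0.022); 1 of these 2 calls was left without B6 dam replicate 1 or 2 of day 14. Of 12 listed cytokines, 2 were abundant enough to test, Lif and Il18, which is also among the targets above, and neither passed between the dams at day 14. Il22 was at 0 in 15 of 17 libraries. The sort removed leukocytes, so these levels do not show whether leukocytes of the same animals made this or the other listed cytokines.

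Some of the other secreted lectins and antimicrobial proteins rose at day 14 as well. Of 16 tested, 4 rose in IgA-null dam pups and 0 fell (list median 0.60, against 0.33 for all genes), and 2 rose after scaling. Of all tested genes 8.32% were higher and 0.358% lower as deposited, and 1.79% higher scaled. Zg16, a goblet cell lectin, rose from 15.0 ± 5.90 to 205 ± 120 TPM (SD, n = 3 each; log2 difference 3.63, SE 0.43, adjusted p = 0.00077). Mptx1 rose from 2.13 ± 1.23 to 16.0 ± 5.47 TPM (2.46, SE 0.32, adjusted p = 0.0012), and Pla2g2a, a bactericidal phospholipase, from 4.16 to 13.1 TPM (1.45, SE 0.27, adjusted p = 0.0069, and 0.081 scaled).

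Of these 16, 3 rose and 1 fell between days 14 and 24 in B6 dam pups, and 2 were called without replicate 3 of day 14 or replicate 2 of day 24. Zg16 rose to 101 and 149 TPM (3.03, SE 0.48), Pla2g5 by 1.60 (SE 0.31) and Lgals3, a galectin, by 2.11 (SE 0.52), while Mptx1 fell (-1.24, SE 0.36, adjusted p = 0.041, and 0.052 scaled). Zg16 rose in both comparisons, while Mptx1 rose in the first and fell in the second. In the second, 1.62% of all tested genes rose and 6.99% fell.

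Markers of several epithelial cell types differed between the dams at day 14 beside the Reg genes. Between the dams at day 14, 17 of 19 goblet and 16 of 20 enteroendocrine markers rose in IgA-null dam pups. So did 7 of 19 Paneth and 6 of 12 tuft markers, and 0 markers of these lists fell. Of all tested genes 8.32% were higher and 0.358% lower. The list medians were 1.48, 2.12, 1.23 and 1.12, against 0.33 for all tested genes. After scaling 12, 14, 2 and 2 rose, beside 1.79% of all tested genes. The count of Paneth markers was 3 without B6 dam replicate 1 and also without IgA-null dam replicate 1 or 3, and that of tuft markers was 1 without B6 dam replicate 2 or 3 or IgA-null dam replicate 1 or 3. That of goblet markers was 10 without B6 dam replicate 2 or IgA-null dam replicate 1 and 11 when IgA-null dam replicate 3 was left out.

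The summed TPM of the goblet list was 755 to 955 in B6 dam pups and 2301 to 4153 in IgA-null dam pups at day 14, and that of the enteroendocrine list 216 to 344 and 1335 to 1996. The Paneth sum was 1599 to 2243 and 2863 to 4910. These sums did not overlap between the dams, as deposited or scaled, and their part in the levels of the Reg genes was not tested. Between days 14 and 24 in IgA-null dam pups, 14 of 19 goblet and 16 of 20 enteroendocrine markers fell and 0 rose as deposited. Of all tested genes 82.9% fell and 0.863% rose. After scaling 1 rose and 1 fell among the goblet markers, and 1 rose and 7 fell among the enteroendocrine markers. The shares of all tested genes were then 8.35% higher and 8.28% lower. In B6 dam pups 2 goblet and 8 enteroendocrine markers rose over this interval as deposited, beside 1.62% of all tested genes. After scaling 10 and 17 were called, beside 7.93% of all tested genes higher and 5.91% lower. The enteroendocrine count as deposited was 4 without B6 dam replicate 1 or 2 of day 14. It also dropped without either B6 dam library of day 24, most without replicate 1, though such a fit leaves a lone sample.

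The sum of the Paneth markers was higher with the IgA-null dam at days 14 and 24, and overlapped between the dams at day 42. At day 24 the Paneth sum was 808 and 811 TPM in the B6 dam libraries and 1426 to 3991 TPM in IgA-null dam pups. At day 42 it was 1019 to 9471 TPM and 1091 to 1800 TPM. Its part in the Reg levels was not tested. Between days 14 and 24 in B6 dam pups 1.62% of all tested genes rose and 6.99% fell. Among 19 Paneth markers, 1 rose between days 14 and 24 in B6 dam pups and 2 fell (0 were called without B6 dam replicate 2 of day 24, and without B6 dam replicate 1 or 3 of day 14).

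Among enterocyte markers, some of the adult list rose and most of the neonatal list fell between days 14 and 24. Of all tested genes 1.62% rose and 6.99% fell over this interval in B6 dam pups. In B6 dam pups 3 of 15 adult enterocyte markers rose (7 without replicate 1 of day 24, and 5 without replicate 2), Sis from 4.41 ± 1.36 TPM to 45.9 and 243 TPM (4.34, SE 0.67, adjusted p = 0.00065), Arg2 and Mgam, and 9 of 14 neonatal markers fell. Among these Fcgrt, the neonatal Fc receptor, fell from 370 ± 196 TPM to 5.75 and 12.2 TPM (-5.12, SE 0.44, adjusted p = 2.4e-06). Between the dams at day 14, 0 of 15 adult markers passed (Sis 4.41 to 17.4 TPM, adjusted p = 0.080) and 3 of 14 neonatal markers fell (6 without B6 dam replicate 3), Lgmn and Ctsl, which encode lysosomal proteases, among them. At day 14, 8.32% of all tested genes were higher and 0.358% lower. The part of the enterocyte marker shifts in the Reg levels was not tested.

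The pancreas also makes Reg transcripts, so acinar genes were read in every library. Of 21 listed acinar genes, Try4, Cela2a, Ctrc, Amy2a5 and Ptf1a were at 0 in all 17 libraries, and Prss1, Prss2, Cpa1, Cpb1 and Pnlip stayed at or below 0.129 TPM. Others were present, with Cela1 at 0.321 to 2.07 TPM, Ctrl at 0.174 to 1.35 TPM and Ctrb1 at 0 to 11.2 TPM. In B6 dam pups Ctrb1 fell from 7.59 ± 4.74 TPM (SD, n = 3) at day 14 to 0.0468 and 0.199 TPM at day 24. This log2 difference was -2.72 (SE 0.41, limma adjusted p = 0.00059). Between the dams at day 14 Ctrb1 differed by -0.86 (SE 0.37). The summed TPM of the list was 20.3 to 36.2 in B6 dam pups and 28.0 to 64.8 in IgA-null dam pups at day 14, and Clps, a colipase gene, was at 3.25 to 59.6 TPM over the series. At day 24 in B6 dam pups the sum was 4.42 and 6.70. Whether pancreatic RNA had a part in the Reg levels was not tested.

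Leukocyte genes summed to 18.9 to 34.4 TPM in B6 dam pups and 22.4 to 32.8 TPM in IgA-null dam pups at day 14, and S100a8 was at 0 in all libraries. Of 5 tested leukocyte genes, 2 fell in IgA-null dam pups at day 14, Csf1r (4.31 to 0.556 TPM, adjusted p = 0.0079) and Trac (2.22 to 0.619 TPM, adjusted p = 0.028, and 0.061 scaled), and 1 call was left without B6 dam replicate 1 or 2 or IgA-null dam replicate 1 or 2. Of all tested genes 0.358% were lower between the dams at day 14. Whether the fall of these leukocyte genes had a part in the Reg levels was not tested.

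The remaining lists are given beside 8.32% of all tested genes higher and 0.358% lower between the dams at day 14. Between the dams at day 14, 0 of 5 exostosin family genes (Extl3 encodes a proposed Reg receptor), 0 of 12 stem cell and proliferation genes and 0 of 2 tested red cell genes passed. Of 4 tested stomach genes Muc6 rose (0.79, SE 0.17) and Cym, which encodes chymosin, fell (-1.19, SE 0.27), and neither passed without B6 dam replicate 1. Between days 14 and 24 in B6 dam pups 6.99% of all tested genes fell. Over this interval 1 exostosin gene fell, Extl1 (-0.85, SE 0.19), as did 4 stem cell and proliferation genes and 2 stomach genes. Without replicate 2 of day 24 the first 2 of these counts were 0, and without replicate 1 of day 24 they were 4 and 12. No gene of the mesenchyme and endothelium list was abundant enough to test.

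**Figure D5:**
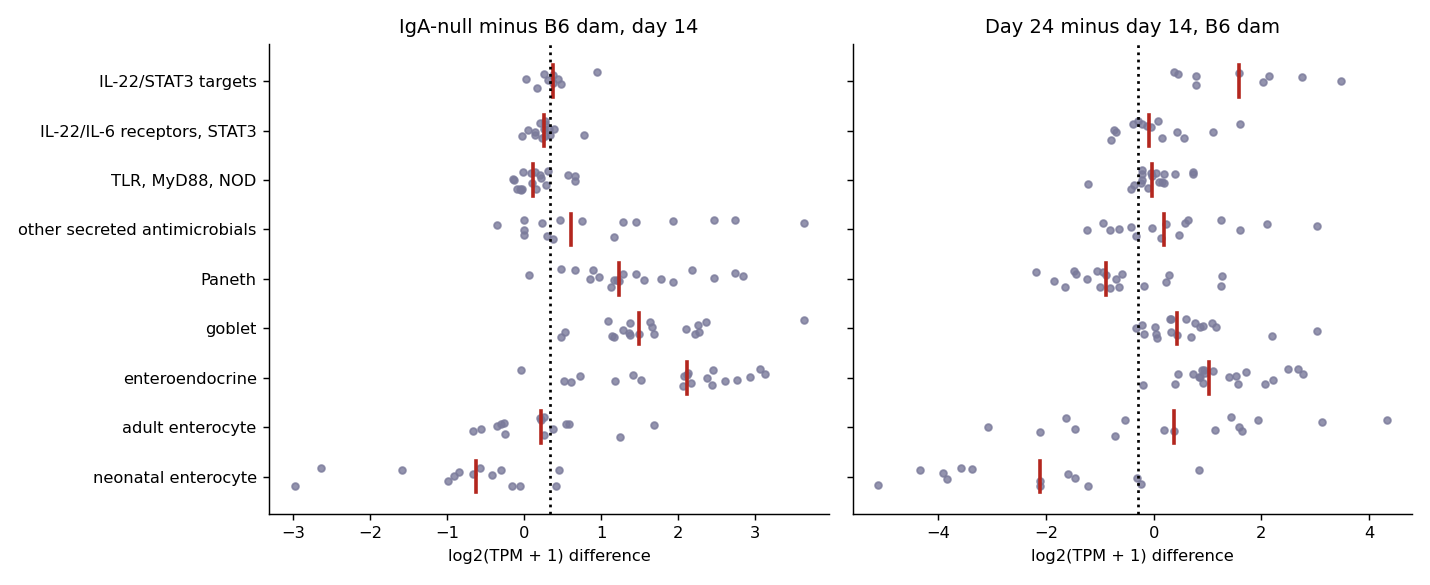
Difference in log2(TPM + 1) of each tested gene (point) of 9 gene lists, between the dams at day 14 (left) and between days 24 and 14 in B6 dam pups (right), as deposited. Red bars are list medians and dotted lines the median of all tested genes; the IL-22 and STAT3 targets have a median of 0.37 on the left and 1.58 on the right.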

How the data were processed

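RNA of 17 libraries was measured after SMART-seq amplification, per the labels' protocols. The authors deposited 1 table of TPM, and mm10, Bowtie2, Subread and DESeq2 are named per the submitters' processing notes, without versions or roles. TPM keeps no depth. Multiplying by GENCODE M21 exon lengths gave whole reads for 93.6% of values (tolerance 0.01 reads or 1e-04), from which depth was taken. These are PCR products without molecular identifiers, and depth limits the precision of low genes.

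limma 3.58.1 (R 4.3.3) with a trend was fitted to log2(TPM + 1) of 15066 genes that reached 1 TPM in 2 or more libraries, in 1 fit over the 6 groups of dam and day, with Benjamini-Hochberg adjusted p under 0.05 as the threshold. It was tested on simulated data. Python 3.11.15, numpy 2.4.6, pandas 2.3.3 and Biopython 1.88 did the rest. Promoters came from RefSeq (GRCm38.p6), and gene symbols were matched as given.

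The Reg genes, the gene lists and the tests were chosen with earlier results of these data known. Named genes were the family, check genes, up to 3 called genes of each list by p (or its first tested gene), and the 5 genes most correlated with each Reg gene, predicted genes left out. Alternatives tried were other pseudocounts (0.1 and 5), no filter on low genes, a higher filter (5 TPM), scaling, TPM without mitochondrial and the 50 highest genes, a replicate block, library weights and leaving out each library. limma-voom on recovered reads was added after seeing the data.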

Additional observations from a re-analysis of the deposited data

Results flagged for a closer look

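The difference between the dams in Reg3b had opposite directions at days 14 and 24: every IgA-null dam library was above every B6 dam library at day 14 and below at day 24. The 2 differences were 5.53 apart on the log2(TPM + 1) scale as deposited and 4.44 after scaling, where the day 24 libraries overlapped. The same held for Reg3g, with 4.06 as deposited and 2.99 scaled. In the fit over all genes both were past the threshold as deposited and neither was after scaling. These genes were chosen with the pattern known, so the values are a description and nothing is read from the calls.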

How the results depend on the processing

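At day 14 the log2 difference between the dams kept its direction for the 5 Reg genes in each alternative run that held them. Reg3b was itself among the 50 highest genes and so has no value in the run without them. Reg3a moved to 2.20 and 0.55 with pseudocounts of 0.1 and 5, 0.96 scaled, 1.69 without mitochondrial and the 50 highest genes, and 1.82 with limma-voom, an alternative chosen after seeing the data. With a pseudocount of 5, Reg3b was 3.26 and Reg3g 1.70. Reg4 was 1.62 scaled, 1.63 without those genes and 1.65 with limma-voom. At day 24 Reg3b was -0.72 scaled and -0.72 with limma-voom, and Reg3g -0.66, -0.63 without the highest genes and -0.65 with limma-voom. Reg4 was 0.93, 0.97 and 0.97 in these 3, Reg1 0.42, 0.45 and 0.46, and Reg3a 0.05, 0.11 and 0.23, both turning direction. At day 42 library weights, whose estimate did not converge, gave 0.47 for Reg3a and 0.53 for Reg4.

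With each library left out in turn, the day 14 difference was 0.71 to 1.79 (Reg1), 1.22 to 1.57 (Reg3a), 3.83 to 4.44 (Reg3b), 2.01 to 3.30 (Reg3g) and 1.93 to 2.23 (Reg4). At day 24 it was -1.09 to 0.78, -1.45 to 0.51, -1.62 to -0.97, -1.52 to -0.95 and 0.14 to 0.66. At day 42 it was -0.75 to -0.0004, -0.83 to 0.17, -1.78 to -0.54, -1.44 to -0.47 and -0.43 to 0.22. Leaving out 1 of the 2 B6 dam libraries of day 24 leaves a lone sample, assumed to vary like the other groups.

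The number of genes past the threshold depended on the setting more than the Reg differences did. Between the dams at day 14 it was 1307 (1253 higher, 54 lower), and 534 and 2489 with pseudocounts of 0.1 and 5, 673 with a TPM of at least 5, 442 scaled (270 higher, 172 lower), 300 without the highest genes, 8581 with library weights, 415 with limma-voom and 324 (without B6 dam replicate 1) to 1267 with a library left out. At day 24 it was 4, and 425 with a pseudocount of 0.1, 22 with no filter, 909 with a TPM of at least 5, 0 scaled, 0 without the highest genes, 2 with the replicate block, 0 with library weights, 0 with limma-voom and 0 (without IgA-null dam replicate 3) to 4870 (without B6 dam replicate 2) with a library left out. At day 42 it was 0, and 5 with no filter, 883 with library weights and 0 to 0 with a library left out.

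Between days 14 and 24 with the B6 dam it was 1297 (244 higher, 1053 lower), and 785 with a TPM of at least 5, 2085 scaled (1195 higher, 890 lower), 1970 without the highest genes, 845 with the replicate block, 339 with library weights, 2100 with limma-voom and 486 (without replicate 2 of day 24) to 4291 (without replicate 1 of day 24) with a library left out. Between days 14 and 42 it was 1373, and 847, 7710 with library weights and 794 to 1174 with a library left out. With the IgA-null dam it was 12627 from day 14 to 24 (130 higher, 12497 lower), and 6733, 2505 scaled (1258 higher, 1247 lower), 2468 and 1682 in the same alternatives, and 11751 to 12649 with a library left out. Over days 14 to 42 it was 6125 (266 higher, 5859 lower), and 3359, 2485 scaled (1266 higher, 1219 lower), 2212, 10686 with library weights, 2521 with limma-voom and 2943 to 6338 with a library left out. The cause of these moves was not tested.

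Whether replicate numbers pair the samples is not given in the labels. Of 40 same-numbered pairs, 10 had a correlation of deviations from the group mean over 0.1 (range -0.65 to 0.26). Differently numbered pairs were not compared, so these values cannot decide it. With the replicate block 968 genes passed between the dams at day 14 (926 higher, 42 lower). Low depth limits Reg3a, Reg3b and Reg3g at day 14 with the B6 dam, where they rest on 4 to 47 reads. Among all other values (single genes and list counts), 1742 values under the alternatives stayed as they were, 255 moved, 182 lost the call, 10 gained it and 0 of those called turned direction.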
